A study of Mus musculus with 4 samples.

Results

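The genes described here build and run the motile cilium, the beating hair-like organelle that multiciliated cells of the airway carry in dense tufts on their surface. They are 34 of the 21499 genes listed for mouse lung, taken by symbol from a list of regulators, axonemal dyneins, spoke and central pair proteins, tektins and other ciliary proteins. All 34 symbols were found in each of the 4 libraries. RNA was sequenced from lung tissue beside metastases of B16-F10, a mouse melanoma line that lodges in the lung after injection into a tail vein. There were 2 libraries from wild-type mice (WT) and 2 from lactoferrin knockout mice (Lf-/-), each from 1 mouse, and the comparison asks how the tissue beside metastases differs without lactoferrin, a protein that binds iron in mucosal fluids and in the granules of neutrophils. Both genotypes were labelled as C57B/L6 males, 8 weeks old when given 200000 B16-F10 cells and killed 3 weeks later, so every library comes from a lung with tumours and none from a lung without. Each group held 10 mice according to the labels, which do not say how the 2 with a library were picked or how the knockout was made.

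In the axoneme of a motile cilium, outer doublet microtubules carry outer and inner rows of dynein motors, which slide neighbouring doublets past each other. Radial spokes connect the doublets to a central pair of microtubules, and a regulatory complex links doublet to doublet. Multicilin, encoded by Mcidas, starts the programme of multiciliated cells together with E2F4 and E2F5. FOXJ1 and the RFX factors then switch on the genes of the axoneme. In the mouse lung such cells line the trachea, bronchi and bronchioles beside club cells, and the alveoli have none. In bulk tissue, fewer cells of a type and less RNA per cell cannot be told apart.

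RFX factors are known for binding the X-box, a pair of similar arms read on opposite strands, close to the starts of cilium genes. The following promoter pieces are shown because they hold such a pair in a set of genes whose levels are compared here. They come from the RefSeq promoter table of GRCm38.p6, which covers 250 bases before to 50 bases after each start and holds 29 of the 34 genes. Foxj1, Dnah3, Rsph1, Rsph4a and Tppp3 were not among the 29. The pair was searched as GTTNCC, then 1 to 3 bases of any kind, then NGNAAC, on either strand. Capitals mark the match, with up to 15 bases on each side, read 5′ to 3′ on the strand of the gene.
Dnah9 (chr11:66168606-66168648, minus strand): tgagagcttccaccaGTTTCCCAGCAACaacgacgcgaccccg
Dnaic1 (chr4:41569760-41569793, plus strand): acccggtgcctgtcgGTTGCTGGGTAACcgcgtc
Dnaic2 (chr11:114727371-114727413, plus strand): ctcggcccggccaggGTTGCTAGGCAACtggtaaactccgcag
Hydin (chr8:110266941-110266976, plus strand): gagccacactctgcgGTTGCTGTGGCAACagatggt
Spag17 (chr3:99885193-99885237, plus strand): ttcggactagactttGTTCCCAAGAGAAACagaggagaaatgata
Tekt2 (chr4:126325690-126325732, minus strand): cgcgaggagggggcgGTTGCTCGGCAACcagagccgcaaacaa
Dynlrb2 (chr8:116504949-116504991, plus strand): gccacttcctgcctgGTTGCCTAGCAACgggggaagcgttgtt
The match began 19 bases before the start in Dnaic1, 21 in Hydin, 29 in Tekt2, 33 in Dnaic2, 51 in Dynlrb2, 82 in Dnah9 and 209 in Spag17. Tekt4 also held the pair, in a match that did not lie wholly before the start and is not printed.

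The pair was found in 8 of the 29 promoters (27.6%), in 18 of 77 promoters (23.4%) of other cilium genes, and in 1.90% of the promoters of all 27025 genes in the table. A single arm spelled GTTGCC, which can be part of the pair, was present on either strand in 14 of the 29 (48.3%), against 14.1% of all promoters. The forkhead core TAAACA, the kind of letters that FOXJ1 and other forkhead factors read, was found on either strand in 7 of the 29 (24.1%), against 15.1% of all. A stricter pair of GTTNCC and GGNAAC up to 3 bases apart was in 0 of the 29, in 6 of the 77 other cilium promoters (7.79%) and in 0.936% of all promoters. A pair of GTNNCC and GGNNAC, 1 to 3 bases apart on either strand, was in 5 of the 29 (17.2%), 19 of the 77 (24.7%) and 4.004% of all promoters. A match is a run of letters and not evidence of binding, and carriers and non-carriers of the pair were found in both directions of the genotype comparison below: Tekt2 was among the higher genes and Hydin among the lower.

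The knockout was visible in the target gene. Ltf was listed at 79.2 and 7.32 FPKM in wild-type mice 1 and 2 and at 0.104 and 0.533 FPKM in Lf-/- mice 1 and 2. FPKM counts fragments relative to transcript length and library size, so levels of genes of unlike length can be set side by side. FPKM summed to between 317976 and 400153 per library, and 12231 to 12590 genes reached 1 FPKM, while read totals are unknown. Scgb1a1, the main secretoglobin of club cells, was listed at 0 in Lf-/- mouse 2 and at 60454 to 72936 FPKM in the other libraries, and such a 0 can be a failed estimate. Without this gene the library sums ran from 315089 to 327216. The Y-linked genes Eif2s3y and Ddx3y were at 24.2 and 14.5 FPKM in Lf-/- mouse 1 and at 22.0 and 12.1 FPKM in Lf-/- mouse 2, but at 0.0426 or below in both wild-type libraries, although the labels call all mice male. Genotype and the presence of these Y-linked transcripts cannot be told apart in this design. The labels give each mouse as a separate animal. Limma's p-values set the genotype difference against the spread between mice of 1 genotype, an estimate that partly borrows from other genes.

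The cilium genes differed between mice of the same genotype, nearly all of them in 1 direction. Each of the 34 had a higher level in wild-type mouse 1 than in wild-type mouse 2, and 33 of 34 had a higher level in Lf-/- mouse 2 than in Lf-/- mouse 1, with Mcidas as the exception. The median ratio was 1.56 between the wild-type mice and 1.53 between the Lf-/- mice, while all genes tested had medians of 1.03 and 0.965 in the same 2 ratios. A ratio of at least 1.5 was reached by 19 of the 34 in the wild-type pair, where 7.83% of the 12573 genes tested did so. In the Lf-/- pair 20 of the 34 reached it, against 5.94% of all genes tested. On 4 other scalings, chosen for these counts after seeing the data, the counts were 16 to 22 and 19 to 23. Wild-type mouse 1 had the highest level for 21 genes and Lf-/- mouse 2 for 13. The lowest level was in wild-type mouse 2 for 18 genes, in Lf-/- mouse 1 for 15 and in Lf-/- mouse 2 for Mcidas alone. Relative to each gene's own mean on the log2(FPKM + 1) scale, the median of the 34 was 0.28 and -0.25 in wild-type mice 1 and 2, and -0.26 and 0.17 in Lf-/- mice 1 and 2. With 1 library per mouse, a difference between mice, between the pieces of lung taken and between library preparations cannot be told apart.

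**Figure D1:**
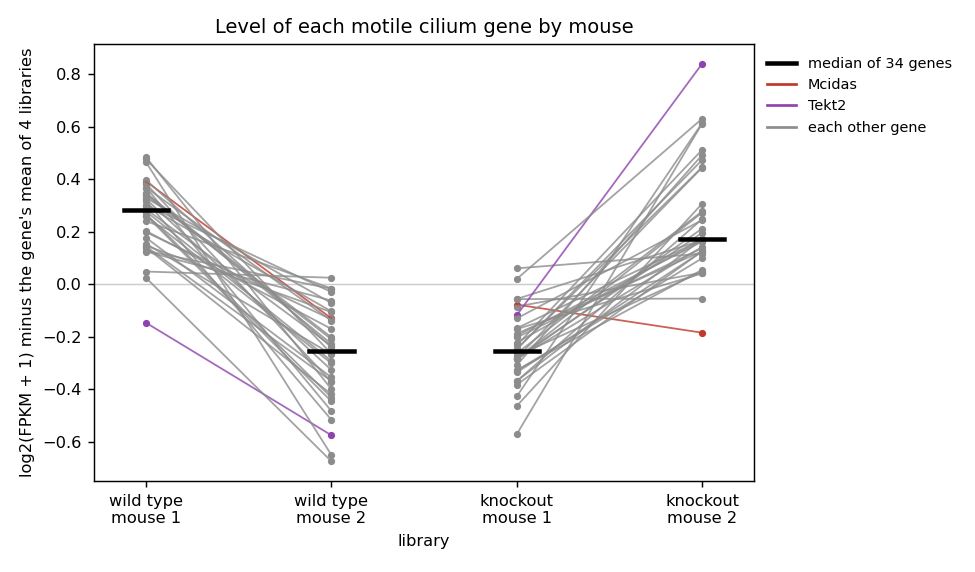
Level of each of the 34 cilium genes in the 4 libraries, as log2(FPKM + 1) minus the gene's own mean over the libraries (vertical axis); lines join the 2 mice of 1 genotype and black bars are the medians. The medians are 0.28 and -0.25 in wild-type mice 1 and 2 and -0.26 and 0.17 in Lf-/- mice 1 and 2; Mcidas (red) runs against the others in the Lf-/- pair and Tekt2 (purple) is the gene highest above its mean in Lf-/- mouse 2.

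Between genotypes, 0 of the 32 cilium genes that passed the filter on low values were called higher or lower by limma at an adjusted p of 0.05. The smallest limma adjusted p among them was 0.890, and 0 had an unadjusted p under 0.05. Over all genes tested, limma called 2 higher (0.0159%) and 1 lower (0.00795%), which leaves next to no background to read the 0 against. The difference, Lf-/- minus wild type on the log2(FPKM + 1) scale, was above 0 for 14 genes and below 0 for 18, with a median of -0.04 beside -0.005 over all genes tested. Both Lf-/- libraries lay above both wild-type libraries for 1 of the 34, Tekt2, where 18.5% of all genes tested had that order. Both lay below for 1, Dnah7a, where 17.5% of all genes tested did. The other 32 overlapped between genotypes. For 28 of the 34 the gap between the mice was wider within each genotype than the gap between the genotype means. Averaging alone tends to narrow a gap between means, and the share of all genes tested with this order was not counted.

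These counts changed when single mice were left out. Without wild-type mouse 1, 18 genes had both Lf-/- libraries above the remaining wild-type library, and without Lf-/- mouse 1, 13 genes had the remaining Lf-/- library above both wild-type libraries. Without wild-type mouse 2, 21 genes had both Lf-/- libraries below, and without Lf-/- mouse 2 the number was 15. Such an order is met more easily with a library left out. The share of all genes tested was not counted for these fits, so the counts have no background beside them. The median difference was 0.25 without wild-type mouse 1, -0.29 without wild-type mouse 2, 0.18 without Lf-/- mouse 1 and -0.24 without Lf-/- mouse 2. The calls by limma stayed at 0 in each of these 4 fits.

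**Figure D2:**
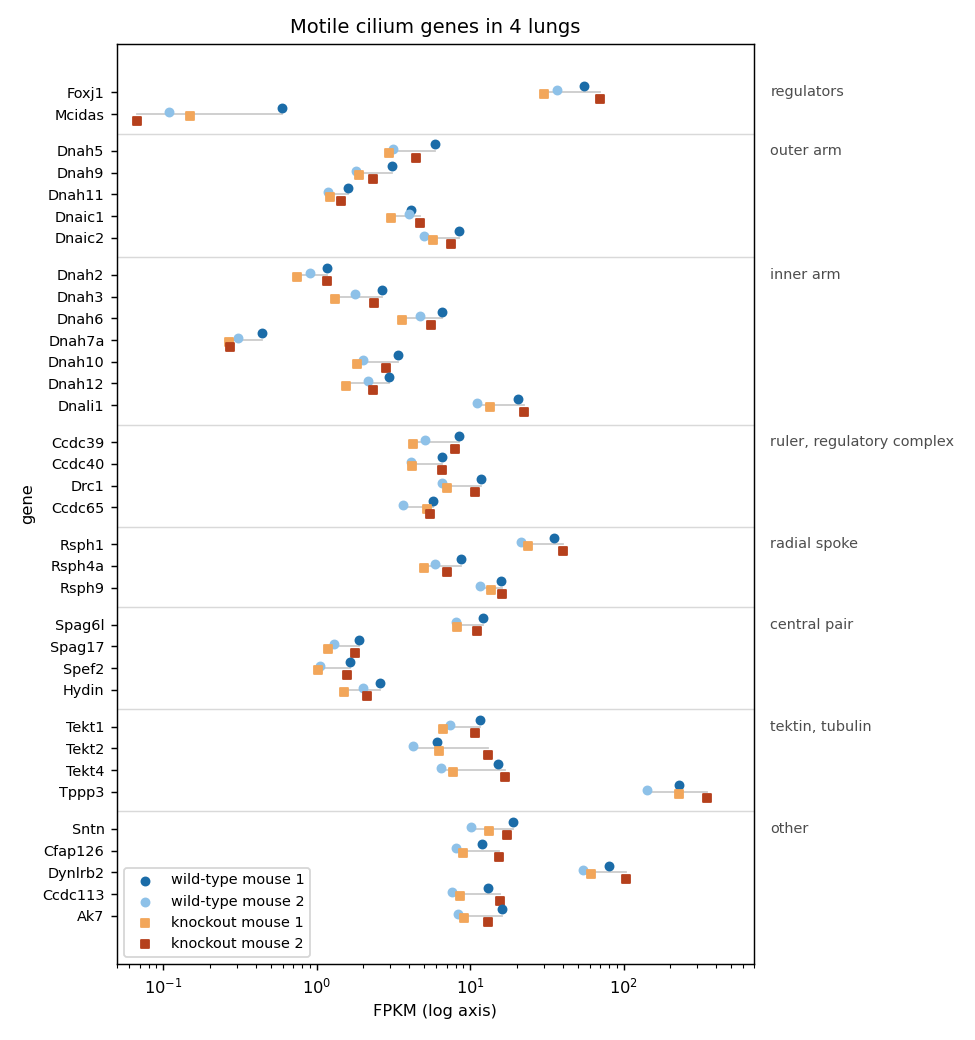
FPKM (horizontal log axis) of the 34 cilium genes in each of the 4 libraries, grouped by role; a grey line spans the lowest to the highest library of a gene. For all 34 genes the dark blue point (wild-type mouse 1) lies to the right of the light blue point (wild-type mouse 2), and for 33 of 34 the red square (Lf-/- mouse 2) lies to the right of the orange square (Lf-/- mouse 1).

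Of the regulators, Foxj1, the forkhead factor of motile cilia, on chromosome 11 (116330704 to 116335399, minus strand, GRCm38), was at 54.7 and 36.7 FPKM in wild-type mice 1 and 2 and at 30.3 and 70.0 FPKM in Lf-/- mice 1 and 2. The Lf-/- mice were the lowest and the highest of the 4. Their mean was 50.2 ± 28.1 FPKM (SD, n = 2) against 45.7 ± 12.7 FPKM (SD, n = 2) in wild type. The log2 difference was 0.04 with a standard error of 0.44 and a 95% interval from -1.13 to 1.21 (limma adjusted p 0.993). Foxj1 had the widest ratio within the Lf-/- pair of all 34, 2.31. Mcidas, on chromosome 13 (112993845 to 113000394, plus strand), was at 0.591 and 0.109 FPKM in wild type and 0.150 and 0.0676 FPKM in Lf-/- mice. It stood apart in wild-type mouse 1, 5.45 times wild-type mouse 2, and was too low in all libraries to be tested. Multicilin is made transiently while cells differentiate.

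The outer dynein arm genes were all tested, and their differences ran from -0.21 to 0.00 with 4 of 5 below 0. Values are given below in the order wild-type mouse 1, wild-type mouse 2, Lf-/- mouse 1, Lf-/- mouse 2. Dnah5, a heavy chain motor whose loss immobilises airway cilia, lies on chromosome 15 (28203752 to 28472052, plus strand) and had 5.92, 3.14, 2.94 and 4.42 FPKM. Wild-type mouse 1 was the highest, and the ranges of the genotypes overlapped. The Dnah5 difference was -0.21 with a standard error of 0.31 and a 95% interval from -1.03 to 0.61 (limma adjusted p 0.934). Dnah9, the heavy chain of the distal part of the cilium, had 3.09, 1.80, 1.87 and 2.33 FPKM. Dnah11, its counterpart in the proximal part, had 1.61, 1.19, 1.22 and 1.43 FPKM. Both were highest in wild-type mouse 1 and lowest in wild-type mouse 2, with the Lf-/- mice between. The level of Dnah9 relative to Dnah5 was 0.522, 0.572, 0.637 and 0.526 in the 4 libraries, while Dnah11 relative to Dnah5 ran from 0.271 in wild-type mouse 1 to 0.415 in Lf-/- mouse 1. Dnaic1, an intermediate chain that anchors the outer arm, had 4.09, 4.01, 3.04 and 4.70 FPKM. It was the member with the closest wild-type pair, at a ratio of 1.02. Dnaic2, the partner intermediate chain, had 8.45, 5.02, 5.72 and 7.49 FPKM. The level of Dnaic1 relative to Dnaic2 was 0.484, 0.798, 0.531 and 0.627.

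Among the inner arm genes, which shape the bend of the cilium, 5 of the 6 tested lay below 0 in the genotype comparison. Dnah2 and Dnah10 encode the heavy chains of the inner arm that carries a pair of motor heads. Dnah2 had 1.16, 0.901, 0.742 and 1.17 FPKM, and Dnah10 had 3.38, 2.00, 1.83 and 2.80 FPKM. The remaining heavy chains belong to inner arms with a single head. Dnah3 had 2.67, 1.78, 1.31 and 2.36 FPKM, and Dnah6 had 6.48, 4.67, 3.57 and 5.50 FPKM. Dnah12 had 2.95, 2.14, 1.56 and 2.33 FPKM, and its log2 difference of -0.27 (standard error 0.21, limma adjusted p 0.894) was the lowest of the 32. In each of these 5 heavy chain genes Lf-/- mouse 1 was the lowest library. Dnah7a had 0.442, 0.304, 0.269 and 0.271 FPKM and was not tested. It is the member with both Lf-/- libraries below both wild-type libraries, but its transcript has near-identical copies, so its level is uncertain. BLAST hits summed to 99.9% of its length in Dnah7b and to 99.6% in Dnah7c, with 96.9% identity in the best hit of each. Dnali1, a light intermediate chain and the most abundant inner arm member, had 20.4, 11.0, 13.5 and 22.4 FPKM. Its difference of 0.20 was the inner arm value above 0.

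Ccdc39 and Ccdc40 form the molecular ruler that sets the spacing of inner arms and spokes along the doublet. Ccdc39 had 8.47, 5.09, 4.21 and 7.89 FPKM, and Ccdc40 had 6.54, 4.08, 4.19 and 6.54 FPKM. Wild-type mouse 1 and Lf-/- mouse 2 were equal for Ccdc40 to 3 digits. Drc1 and Ccdc65 are subunits of the regulatory complex between doublets. Drc1 had 11.7, 6.53, 7.01 and 10.8 FPKM. Ccdc65 had 5.73, 3.66, 5.21 and 5.45 FPKM, so that wild-type mouse 2 was low and the other 3 were close together. These 4 genes lay between -0.16 and 0.18 in the genotype comparison, 2 on each side of 0, with limma adjusted p-values of 0.923 or above.

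The radial spoke heads touch the central pair. Rsph1 had 35.1, 21.3, 23.7 and 39.8 FPKM, Rsph4a had 8.73, 5.85, 5.00 and 7.07 FPKM, and Rsph9 had 15.9, 11.6, 13.6 and 16.1 FPKM. Lf-/- mouse 2 was the highest for Rsph1 and Rsph9, and wild-type mouse 1 for Rsph4a. The log2 differences were 0.16 for Rsph1, -0.23 for Rsph4a and 0.11 for Rsph9. The central pair genes Spag6l, Spag17, Spef2 and Hydin all lay slightly below 0, from -0.22 to -0.03, and wild-type mouse 1 was the highest library for each. Spag6l had 12.0, 8.08, 8.16 and 11.0 FPKM. Spag17 had 1.89, 1.30, 1.19 and 1.77 FPKM, and its level relative to Spag6l held at 0.157, 0.160, 0.146 and 0.161. Spef2 had 1.65, 1.05, 1.01 and 1.58 FPKM. Hydin, a very large protein of a central pair projection whose loss in mice gives hydrocephalus, had 2.57, 1.99, 1.504 and 2.13 FPKM.

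The tektins, filament proteins inside the doublet, and Tppp3, a tubulin-binding protein abundant in ciliated cells, held the 2 largest positive differences, those of Tekt2 and Tppp3. Tekt2, on chromosome 4 (126322121 to 126325688, minus strand), had 6.07, 4.25, 6.22 and 13.0 FPKM. Lf-/- mouse 2 stood well above the rest, and Lf-/- mouse 1 was barely above wild-type mouse 1. Its means were 9.61 ± 4.81 FPKM (SD, n = 2) in Lf-/- and 5.16 ± 1.28 FPKM (SD, n = 2) in wild type. The log2 difference of 0.72 had a standard error of 0.36, a 95% interval from -0.23 to 1.68 and a limma adjusted p of 0.890. Tppp3, on chromosome 8 (105467493 to 105471526, minus strand), had 228 FPKM in wild-type mouse 1, 140 in wild-type mouse 2, 228 in Lf-/- mouse 1 and 348 in Lf-/- mouse 2. Wild-type mouse 1 and Lf-/- mouse 1 were level, and the other mouse of each genotype lay on either side. Its difference was 0.65 with a standard error of 0.33, a 95% interval from -0.23 to 1.53 and a limma adjusted p of 0.890. Tekt1 had 11.5, 7.38, 6.60 and 10.6 FPKM and a difference of -0.12. Tekt4 had 15.1, 6.45, 7.70 and 16.9 FPKM, with ratios within genotype of 2.35 and 2.19, and a difference of 0.19. The level of Tekt2 relative to Tekt1 was 0.529 and 0.577 in wild type and 0.942 and 1.22 in Lf-/- mice. This ratio did not overlap between genotypes, was picked after its values were seen and was not tested.

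The remaining members have other parts in ciliated cells. Sntn encodes sentan of the ciliary tip and had 19.1, 10.1, 13.2 and 17.4 FPKM. Cfap126, which helps to place basal bodies, had 12.0, 8.09, 8.88 and 15.3 FPKM. Dynlrb2, a light chain of the dynein that carries cargo back along the cilium, had 79.6, 53.8, 61.3 and 103 FPKM. Wild-type mouse 2 was the lowest library for all 3. Ccdc113, a coiled-coil protein of cilia, had 13.1, 7.62, 8.49 and 15.5 FPKM. Ak7, an adenylate kinase of motile cilia, had 16.0, 8.24, 9.04 and 13.0 FPKM, and it was the only gene of these 5 with a difference below 0 (-0.08). Their limma adjusted p-values were 0.922 or above.

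By mean FPKM the 34 ranged from 0.229 for Mcidas to 236 for Tppp3, with 11 at 10 or above and 6 under 2. They lie on 15 chromosomes. Summed over the 34, FPKM was 627 and 391.6 in wild-type mice 1 and 2 and 492 and 791 in Lf-/- mice 1 and 2, a ratio of Lf-/- to wild-type means of 1.26. Leaving out a library moved this ratio between 0.966 and 1.64. Tppp3 made up much of the sum, and without it the sums were 399, 251, 264 and 443, a ratio of 1.09. Exons of some members overlap a gene on the opposite strand, and whether strand was used in counting is not given in the sources used here. The shared part was 16.9% of the exons of Ccdc39 (with Ttc14), 10.5% of Dnah3 (with Lyrm1), 9.66% of Spag17 (with Wdr3), 4.44% of Dnah11 (with Cdca7l), 2.02% of Dnali1 (with Gnl2) and 0.539% of Dnaic1 (with Enho).

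The small genotype differences of the cilium genes were ordered by transcript length. Of the 17 tested members with a longest coding transcript under 3000 nt, 13 lay above 0 and 4 below, with a median of 0.16. Of the 15 at 3000 nt or more, which include all the tested dynein heavy chains, Hydin, Spag17 and Spef2, 1 lay above 0 (Ccdc40) and 14 below, with a median of -0.14. The same order, with smaller differences, was seen over all genes tested: 60.8% of 5952 shorter genes lay above 0 (median 0.06) and 37.4% of 6326 longer genes (median -0.05). Spearman's rho between length and difference was -0.77 across the 32 members and -0.28 across 12278 genes, as a description, since genes of the same libraries are not independent replicates. Length was also ordered with the library in which a member was highest: Lf-/- mouse 2 for 11 of the 17 shorter ones, wild-type mouse 1 for 13 of the 15 longer ones. The difference between mice of 1 genotype remained in the longest class, over 8000 nt, where the median of the 9 members was 0.40 between wild-type mice 1 and 2 and 0.38 between Lf-/- mice 2 and 1, beside -0.15 and -0.08 over all 642 genes of that class. Setting the median of each length class to be equal in all libraries, an alternative chosen after seeing the data, moved the members' median difference to 0.01. Whether the order by length remained under this setting was not counted. Length also went with level among the members. In the longest class, mean FPKM ran from 0.993 (Dnah2) to 5.06 (Dnah6). The most abundant members, Tppp3 (236), Dynlrb2 (74.5) and Foxj1 (47.9), were under 3000 nt, although Dnaic1, at 2510 nt, had a mean of 3.96. Length and level were not told apart here. Whether RNA quality or library preparation gave the length order was not tested.

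**Figure D3:**
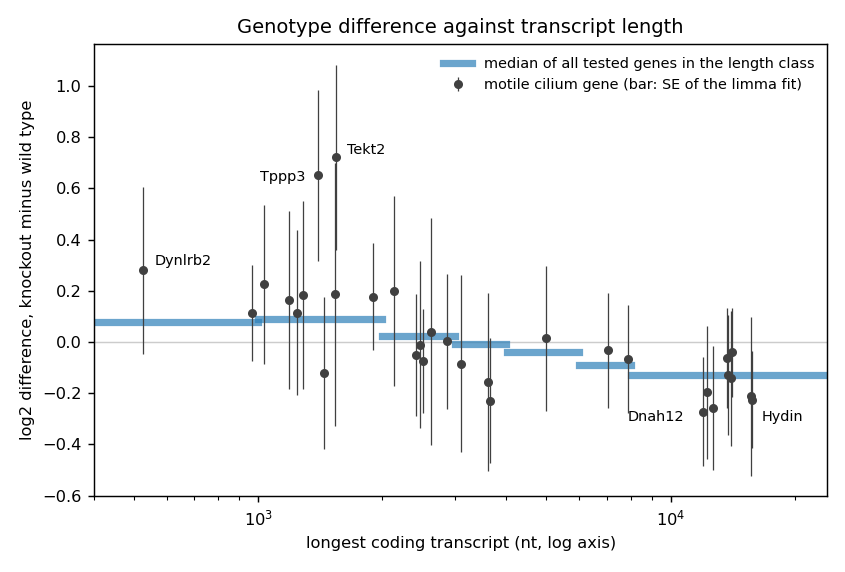
Genotype difference of the 32 tested cilium genes on the log2(FPKM + 1) scale, Lf-/- minus wild type, against the longest coding transcript (log axis, nt); vertical bars are limma standard errors and blue bars the median of all genes tested in that length class. The 17 members under 3000 nt have a median of 0.16 and the 15 longer ones a median of -0.14.

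Other genes of the pathway were described from lists of 98 cilium and ciliated cell genes, 91 of which were found. Of these, 79 were tested and limma called 0, with a smallest adjusted p of 0.890 and 1 gene at an unadjusted p under 0.05. The difference was above 0 for 36 and below for 43, with a median of -0.01. They shared the pattern by mouse: 85 of 91 were higher in wild-type mouse 1 than in wild-type mouse 2, with a median ratio of 1.48, and 80 of 91 were higher in Lf-/- mouse 2 than in Lf-/- mouse 1, with a median ratio of 1.43. Ratios of at least 1.5 were reached by 41 and 38 of the 91. Ciliated cell markers fixed for this tissue were present in all 4 libraries, with Fam183b at 73.4, 36.1, 45.7 and 96.4 FPKM, Ccdc153 at 57.4, 35.7, 41.0 and 62.9 FPKM and Tmem212 at 63.4, 47.0, 44.3 and 58.7 FPKM. Cfap52, a protein of the inner doublet wall, was the gene with the unadjusted p under 0.05, at 8.04, 6.69, 5.58 and 4.02 FPKM. Its log2 difference was -0.54 with a standard error of 0.19 (limma adjusted p 0.890), and unlike the 33 members above it was lower in Lf-/- mouse 2 than in Lf-/- mouse 1. The ciliated cell cadherins Cdhr4, at 16.1, 10.7, 7.21 and 9.74 FPKM (difference -0.59), and Cdhr3, at 19.5, 13.8, 11.4 and 13.7 FPKM (difference -0.36), also had both Lf-/- libraries below both wild-type libraries, with a limma adjusted p of 0.890 each. Of the 79 tested, 6 had this order, where 17.5% of all genes tested did. The opposite order was held by 3, where 18.5% of all genes tested had it. Sec14l3, a lipid-binding protein of ciliated cells, was at 397, 380, 389 and 495 FPKM.

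The subgroups of these lists had medians near 0. Genes of further arms and docking complexes had 4 of 8 tested above 0 (median -0.03), and the 3 of smallest p were Dnah1 (-0.18), Ccdc114 (0.21) and Dnal4 (0.23). Dynein assembly factors had 6 of 8 above 0 (median 0.07), with Dnaaf5 at 0.15, Lrrc6 at -0.24 and Zmynd10 at 0.21. Spoke, central pair and regulatory complex genes had 8 of 18 above 0 (median -0.01), with Cfap54 at -0.23, Iqub at -0.33 and Iqcd at 0.40. Inner doublet proteins had 3 of 15 above 0 (median -0.05), among them Cfap20 at 0.22 and, below 0, Spata18 at -0.32. Regulators and basal body genes had 6 of 11 above 0 (median 0.02), with Rfx2, a partner of FOXJ1, at 0.21, E2f4 at 0.19 and Plk4, a kinase of centriole duplication, at -0.19. Other ciliated cell genes had 9 of 19 above 0 (median -0.01). Limma adjusted p-values of these genes were 0.890 or above.

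Intraflagellar transport, the traffic that builds cilia of all kinds, including the primary cilia of non-ciliated airway and stromal cells, was taken as a separate list. Its 25 genes were all tested, 14 above 0 and 11 below, and limma called 0, with a smallest adjusted p of 0.890. The median ratio was 1.23 between the wild-type mice and 1.07 between the Lf-/- mice, and 3 of 25 reached 1.5 in each pair. The genes of smallest p were Ift27 (difference 0.33), Ift46 (0.29) and Ift80 (-0.19). Sperm-type relatives of the axonemal genes summed over 6 genes to 3.15, 2.87, 3.26 and 3.62 FPKM. Most of each sum was Tekt5, the 1 gene of the 6 that passed the filter, at 2.28, 2.45, 2.75 and 3.07 FPKM.

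Other cell types of the lung differed between the same mice, and their part in the cilium pattern was not tested. The 8 club cell genes were all found, and without Scgb1a1 they summed to 8554, 6171, 6656 and 7916 FPKM, the same order within each genotype as the cilium genes, with Cbr2 at 3380, 2818, 3031 and 3116 FPKM. Scgb3a1 was the most uneven, at 966, 9.36, 44.5 and 365 FPKM. Over the 8 genes the median ratios were 1.20 in the wild-type pair and 1.14 in the Lf-/- pair, where 6 were higher in Lf-/- mouse 2. These values include Scgb1a1, whose listed 0 in Lf-/- mouse 2 can be a failed estimate. The 7 goblet cell genes summed to 375, 11.3, 13.4 and 57.8 FPKM, again higher in wild-type mouse 1 and in Lf-/- mouse 2. Bpifb1, a secreted protein of larger airways, was at 256, 3.89, 8.37 and 42.7 FPKM, and Tff2 was at 78.2, 2.60, 2.00 and 6.97 FPKM. The sums of basal cell, cartilage and smooth muscle genes were each highest in wild-type mouse 1. The 6 basal cell genes summed to 13.2, 2.24, 3.69 and 2.01 FPKM, with Krt15 at 6.66, 0.0466, 0.0832 and 0.361 FPKM, Dapl1 at 2.75, 1.74, 2.92 and 1.17 FPKM, and Krt5 at 2.36 FPKM in wild-type mouse 1 and listed at 0 in the other 3. Wild-type mouse 1 was the highest library for 4 of the 6 basal genes. The 6 cartilage genes summed to 3.51, 0.225, 0.0711 and 0.108 FPKM, with Col2a1 at 1.11 FPKM in wild-type mouse 1 and 0.0100 or below elsewhere and Comp at 1.29, 0.217, 0.0611 and 0.0917 FPKM. The 6 smooth muscle genes summed to 1122, 383, 636 and 725 FPKM, with Acta2 at 428, 145, 249 and 232 FPKM and Tagln at 311, 114, 190 and 223 FPKM. In Lf-/- mouse 2, where cilium genes were high, the goblet and smooth muscle sums lay above those of the 2 mice with low cilium genes, the cartilage sum between them and the basal sum below both.

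The 6 alveolar type 1 genes summed to 1609, 1884, 2042 and 2632 FPKM, in an order that did not follow the cilium genes in the wild-type pair, with Ager at 796, 973, 1086 and 1410 FPKM and Hopx at 385, 548, 530 and 629 FPKM. The 6 alveolar type 2 genes summed to 26126, 26622, 26094 and 20213 FPKM, with the lowest sum in Lf-/- mouse 2, Sftpc at 20922, 21592, 21538 and 17185 FPKM and Sftpb at 2692, 2550, 2455 and 1856 FPKM. The 5 neuroendocrine genes summed to 5.996, 5.80, 5.57 and 8.67 FPKM, with Resp18 at 1.18, 1.39, 1.06 and 2.16 FPKM and Syp at 3.68, 3.72, 3.54 and 4.32 FPKM. The 6 melanocyte genes summed to 10.4, 117, 10.7 and 4.02 FPKM, with Pmel at 0.215, 30.8, 1.26 and 0.186 FPKM and Mlana at 4.53, 21.7, 2.92 and 2.00 FPKM. Melanocyte transcripts were thus highest in wild-type mouse 2, a mouse with low cilium genes, although the labels describe tissue without tumour cells. Limma called 0 genes of the cell type lists in either direction, but few of some lists passed the filter: 0 of 6 cartilage, 1 of 6 basal, 2 of 5 neuroendocrine, 4 of 7 goblet and 4 of 6 melanocyte genes were tested.

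**Figure D4:**
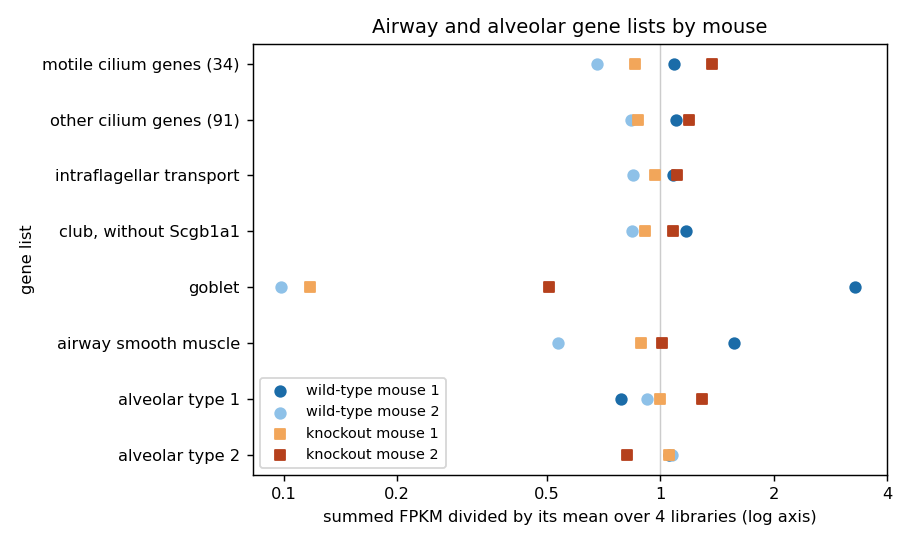
Summed FPKM of gene lists in each library divided by the mean of the 4 libraries (horizontal log axis), for cilium, airway and alveolar lists. The cilium, club and goblet lists are higher in wild-type mouse 1 than in wild-type mouse 2 and higher in Lf-/- mouse 2 than in Lf-/- mouse 1; alveolar type 1 genes are highest and alveolar type 2 genes lowest in Lf-/- mouse 2.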

How the data were processed

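Values were the authors' deposited FPKM per gene symbol, 1 library per mouse. TopHat, Cufflinks, HTSeq, DESeq and GRCm38 are named, without version or role, per the submitters' processing notes. Not given in the sources used here are the annotation, the strand setting and how multiply mapped reads were treated. Without counts, depth is unknown and no counting interval is given.

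Each library listed 21545 entries, and 46 extra entries of 39 repeated symbols were summed, which left 21499 genes. Genes at 1 FPKM or more in at least 2 libraries were tested (12573) as log2(FPKM + 1), a scale that understates differences of low genes. Limma 3.58.1 in R 4.3.3 (lmFit, eBayes with trend) had genotype as the sole term, with Benjamini-Hochberg adjustment at 0.05 over all genes tested, 2 residual and 2.62 prior degrees of freedom. The step was run on simulated data with independent noise for each gene. The cilium genes varied together here, so that run does not tell how many true changes limma would miss in these data. No exact permutation test was run, because its smallest p with 2 mice a genotype is 0.333. The labels number the mice 1 and 2 in each genotype as separate animals. The deviations of same-numbered mice correlated at -0.34 across all genes tested. Genes relatively higher in wild-type mouse 1 thus tended to be relatively higher in Lf-/- mouse 2, the same split as in the cilium genes. With 4 libraries this value cannot decide whether same-numbered mice were handled together.

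Positions and lengths (12278 genes, 97.7% of those tested) came from GENCODE vM21 of GRCm38, near-identical copies from BLAST 2.17.0 (95% identity or more, over 50% or more of the length), and promoters from RefSeq. Tables used pandas 2.3.3, scipy 1.17.1 and numpy 2.4.6 in Python 3.11.15, and plots matplotlib 3.10.9.

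The members and lists were chosen with earlier results of these data known. All members are named. Of each other cilium list the up to 3 genes of smallest p are named, of each cell type list the 2 of highest mean FPKM, and Ltf and Scgb1a1 as checks. Krt5, Scgb3a1, Eif2s3y, Ddx3y, Fam183b, Ccdc153 and Tmem212 are named beside this rule. All of these but Fam183b, Ccdc153 and Tmem212 were chosen after their values were seen. The precursor genes Gmnc, Ccno, Myb, Deup1 and Cdc20b also fall outside the rule. So do Gas8, Pih1d3 and Rsph6a, which are named for their entries of 0 FPKM. The ratio of 1.5 within a genotype, the length classes, the length centring and the crossed pairing were also chosen after seeing the data. The settings varied were the filter (none), the pseudocount (0.1 and 0.5), a mean of at least 5 FPKM, median ratio scaling, quantile normalization, leaving out the 20 most abundant genes, a constant prior variance, the mouse number as a block, and each library left out.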

Additional observations from a re-analysis of the deposited data

How the results depend on the processing

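Limma called 0 of the cilium genes in either direction under each alternative run, with a lowest adjusted p of 0.407 (without Lf-/- mouse 1). The 2 genes called higher over all genes became 0 with no filter or the replicate block, 1 at a mean of at least 5 FPKM, and 0 to 0 with a library left out. The 1 called lower became 0 at a pseudocount of 0.1, with no filter, under median ratio scaling, quantile normalization, without the 20 most abundant genes, with a constant prior variance, the replicate block or length centring, and 0 to 1 with a library left out. A block crossing the mouse numbers, chosen after seeing the data, called 2 higher and 2 lower, 0 of them cilium genes. In that fit 2 cilium genes had an unadjusted limma p under 0.05, as did 1039 of the 12573 genes tested. The replicate block on the mouse number left 0 cilium genes called, and the numbers name separate animals. Cilium genes with both Lf-/- libraries above both wild-type libraries were 2 in place of 1 under median ratio scaling, quantile normalization and without the 20 most abundant genes, and 1 to 18 with a library left out. Those with both below were 0 in place of 1 under quantile normalization and 1 to 21 with a library left out. With a library left out such an order is met more easily. The share of all genes tested with these orders was not counted under any of these settings, so the counts have no background beside them. The median difference ran from -0.29 to 0.25 with a library left out and from -0.05 to 0.11 elsewhere. The difference changed sign for 1 of 32 members under median ratio scaling, 5 under quantile normalization, 5 under length centring and 10 to 14 with a library left out. In the fits with a library left out, the lone mouse is assumed to vary like the other genotype. The cause was not tested. With 2 mice a genotype the 95% intervals were wide (-1.13 to 1.21 on the log2 scale for Foxj1). An interval gives the differences that fit these data, so the 0 calls do not show equal levels.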

Other observations

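Gas8, a subunit of the regulatory complex, Pih1d3, a dynein assembly factor known in mice from sperm, and Rsph6a, a spoke head gene known from sperm, were listed at 0 FPKM in all 4 libraries. Gas8 is used by airway cilia, and Drc1, a subunit of the same complex, was at 6.53 or above in every library, so the 0 of Gas8 is given here as the entry in the files and not as absence of the transcript.

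The precursor genes that act with multicilin were low but present. Gmnc was at 1.61, 0.790, 1.20 and 1.89 FPKM and Ccno at 3.01, 1.94, 2.44 and 3.29 FPKM in wild-type mice 1 and 2 and Lf-/- mice 1 and 2. Myb was at 4.65, 3.22, 2.99 and 4.72 FPKM and Deup1 at 1.25, 0.805, 0.822 and 1.00 FPKM. Each was higher in wild-type mouse 1 and in Lf-/- mouse 2 than in the other mouse of that genotype, whereas Mcidas was lower in Lf-/- mouse 2 (0.0676 FPKM) than in Lf-/- mouse 1 (0.150 FPKM). Cdc20b was at 0.273, 0.0607, 0.0235 and 0.151 FPKM. Mcidas and Cdc20b were below the filter and were not tested.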
